A study of Mus musculus with 6 samples.

Results

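The 10 genes described here, *Cd5*, *Spn*, *Itgam*, *Cd9*, *Cd300lf*, *Anxa2*, *S100a6*, *Plscr1*, *Arid3a* and *Bhlhe41*, encode surface molecules, calcium- and membrane-binding proteins and transcription factors that are associated with B1a cells. They were chosen by gene name, and every non-control probe carrying one of these names was read, which gave 18 probes for 10 of the 36163 gene names on the array. All 18 probes were well above background on all 6 arrays, so none was lost to the filter on dim probes. The 6 genes *Spn*, *Itgam*, *Cd300lf*, *Plscr1*, *Arid3a* and *Bhlhe41* had 2 or more probes.

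The samples were peritoneal cavity (PC) B1a cells of female C57Bl/6-background mice aged 7 weeks, sorted as B cells positive for CD11b and CD5, with 3 arrays per genotype and a minimum of 3 mice in a sample. The knockout group was p40-/-IL-2Rα-/- mice and the control group p40-/-IL-2Rα+/- mice, where IL-2Rα is CD25, encoded by *Il2ra*. Both groups lacked p40, the subunit shared by interleukin-12 and interleukin-23 and encoded by *Il12b*, and the control mice carried 1 deleted *Il2ra* allele. Both deletions are germline and are not restricted to B cells.

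B1a cells are a self-renewing B cell population that arises largely from fetal and neonatal precursors and settles in the peritoneal and pleural cavities. Natural IgM and IL-10 are among the products of the B1a lineage. They are told apart from conventional (B2) cells by CD5 on the surface, together with CD43 and, in the peritoneal cavity, CD11b. *Arid3a* and *Bhlhe41* encode DNA-binding proteins that are required for this population to form or to be maintained in mice. Mice of the knockout genotype serve as a model of autoimmune bile duct disease, and the comparison asks whether transcripts that mark B1a cells differ between PC B1a cells of these mice and those of control mice.

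All levels below are log2 of the array signal relative to the 75th percentile of the same array, differences are knockout minus control on that log2 scale, and adjusted p-values are from limma over the 24754 tested probes. The 75th percentile of the signal was 252 to 272 on the control arrays and 66.5 to 162 on the knockout arrays, and 47.2% to 50.6% and 39.7% to 45.9% of spots were well above background. The probe of *Il2ra*, the deleted gene, read 1.62, 1.13 and 1.35 in control and -0.31, -0.59 and 0.86 in knockout cells, a difference of -1.38 that did not pass the test (adjusted p = 0.119), and it stood well above background on each of the 6 arrays. The probe of *Il12b*, deleted in both groups, was also well above background on all 6 arrays, at -2.52 to -1.80, and differed by -0.02. The B lineage label was borne out by the levels of *Cd79a*, *Cd79b*, *Ms4a1*, *Blnk* and *Cd37*, with genotype means from 6.94 (*Cd37*, knockout) to 9.32 (*Cd79b*, knockout). *Pax5* averaged 0.32 in control and 0.89 in knockout cells, and each of these genes was well above background on all 6 arrays. Detection alone does not tell cell types apart here, since 7 of 10 T cell and 10 of 13 macrophage genes were also well above background on all 6 arrays. All 12 of 12 further genes associated with B1a cells were also well above background on all 6 arrays. Of the defining B2 markers, *Fcer2a* (CD23) averaged -1.98 on the knockout and -2.59 on the control arrays and *Cr2* (CD21) 1.25 and 1.01.

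None of the 18 probes passed an adjusted p under 0.05, a threshold that 0.0808% of all tested probes passed. None reached a 2-fold difference together with an unadjusted p no higher than 0.05 either, against 3.63% of all tested probes, 2.38% on the higher and 1.25% on the lower side. At an unadjusted p of at most 0.05 alone there were 6 member probes, 3 higher and 3 lower in knockout cells, where 24.5% of all tested probes passed, 12.6% higher and 12% lower. On 9 of the 18 probes the 3 knockout arrays did not overlap the 3 control arrays, 5 above and 4 below, and 35.2% of all tested probes showed no overlap, 15.6% above and 19.6% below. The smallest adjusted p among the 18 probes was 0.128, for *Anxa2*, and the largest was 0.942, for *Plscr1*. With 1 probe per gene the median difference of the 10 genes was -0.12, beside -0.12 over all genes. Each sentence below that calls a probe higher or lower therefore gives the direction of its means, and no difference between genotypes passed the adjusted threshold.

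**Figure D1:**
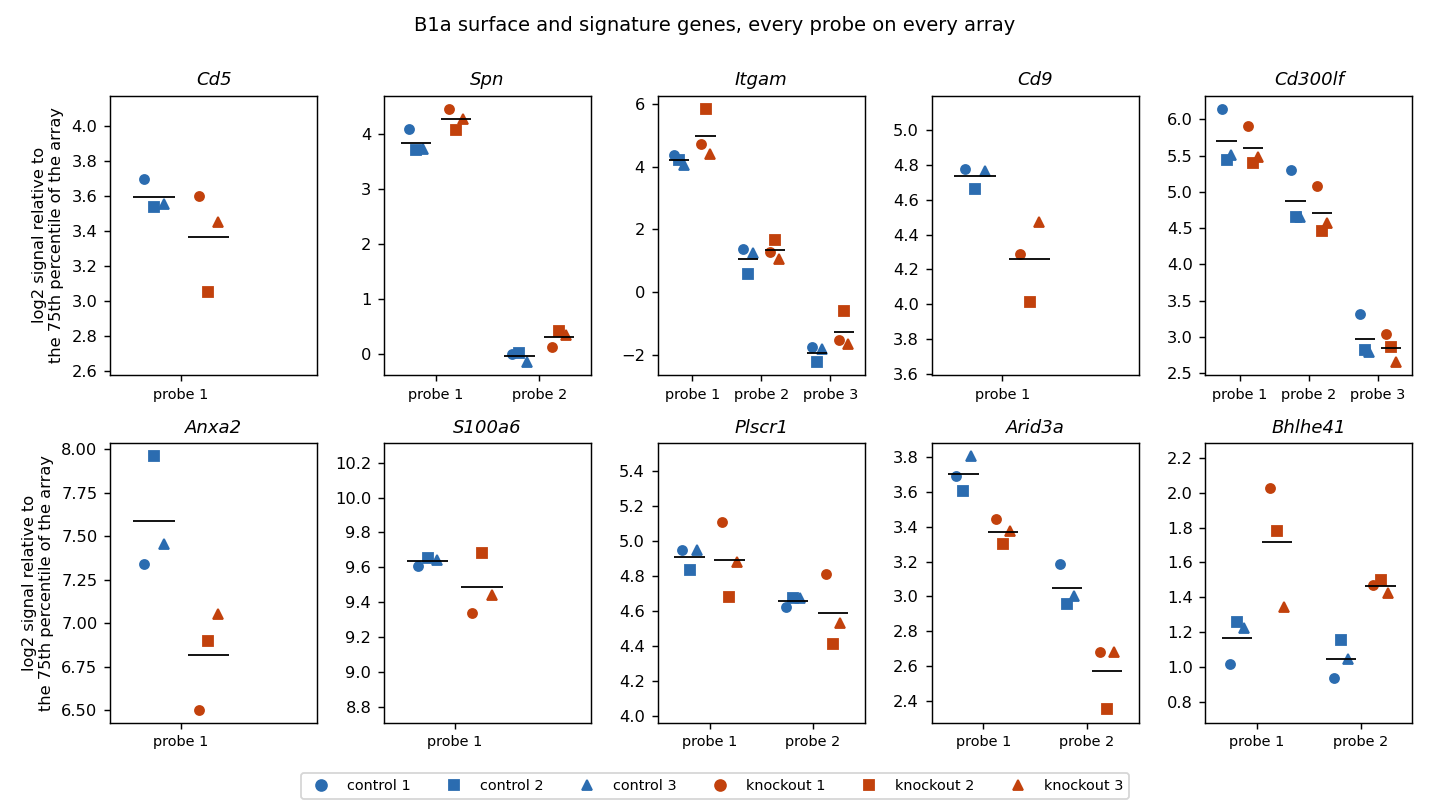
Level of each of the 18 probes on each array, as log2 signal relative to the 75th percentile of the array (vertical axes differ between genes). Circles, squares and triangles are replicates 1, 2 and 3, blue for control and orange for knockout, and bars are means of 3 arrays. The knockout arrays lie below all control arrays for Cd9, Anxa2 and both Arid3a probes and above them for both Bhlhe41 probes, and knockout 2 stands far above the other arrays on Itgam probe 1 at 5.86.

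**Figure D2:**
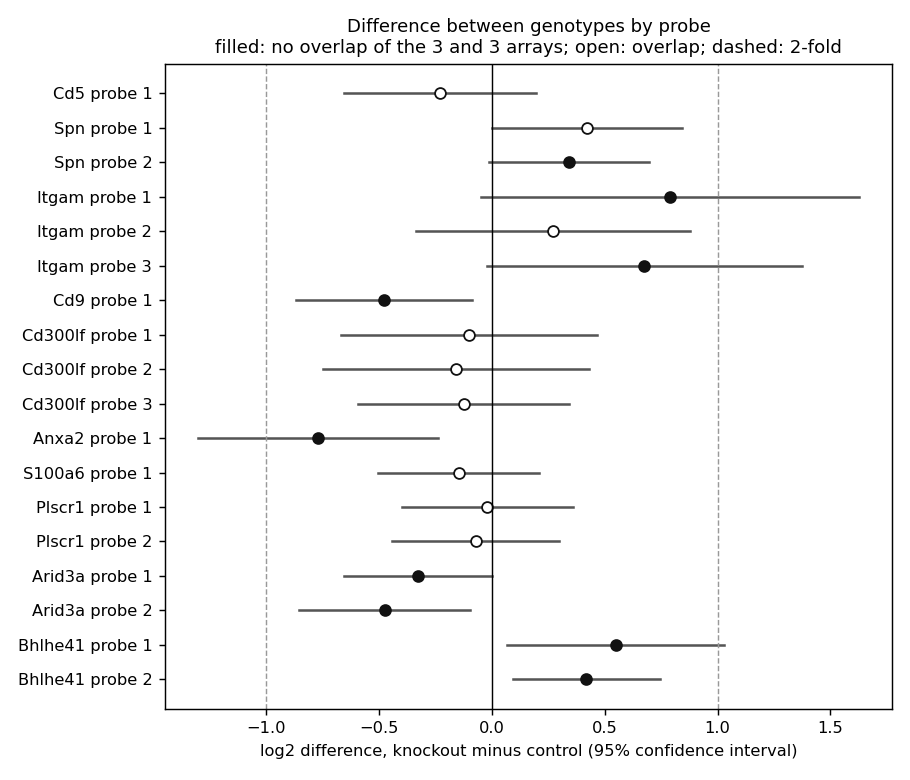
Difference between genotypes (knockout minus control, log2) for each of the 18 probes, with its 95% confidence interval. Filled points mark the 9 probes on which the 3 knockout arrays did not overlap the 3 control arrays, and dashed lines mark a 2-fold change. Anxa2 lies lowest at -0.77 and Itgam probe 1 highest at 0.79.

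Of the surface genes, *Cd5* encodes a scavenger-receptor family glycoprotein that dampens signalling through the B cell receptor and is one of the antigens by which these cells were sorted. Its probe, at chr19:10792701-10792760 (mm9, minus strand), read 3.70, 3.54 and 3.56 in control and 3.60, 3.05 and 3.45 in knockout cells. The genotypes overlapped, since knockout 1 lay above controls 2 and 3, and knockout 2 was the lowest array. The difference was -0.23 (SE 0.181, 95% confidence interval -0.66 to 0.19, adjusted p = 0.424), and it ranged from -0.52 with normexp and the 75th percentile to -0.04 with quantile normalization. Without knockout 2 it came to -0.07 and without knockout 1 to -0.35. As in any sorted bulk sample, fewer cells of a type and less RNA per cell cannot be told apart. T cells also transcribe *Cd5*, and of 10 T cell genes 7 were tested, 5 of them higher and 2 lower in knockout cells. *Cd3e*, a chain of the T cell receptor complex, was 0.43 in control and 1.02 in knockout cells, with no overlap (adjusted p = 0.128), and *Cd3d* was -2.73 and -1.32, with overlap. The *Cd3d* difference of 1.41 came to 0.89 without knockout 3 and to 0.59 with normexp and quantile normalization. The 2 lower genes were *Cd3g*, another chain of that complex, at -0.28 and *Cd2* at -0.15, both with overlap. *Lck*, a kinase of T cell receptor signalling, differed by 0.48 with overlap, and by 0.22 without control 2 and 0.82 without control 1. The summed level of the T cell list without *Cd2*, which B cells also transcribe, was 3.18 to 3.89 on the control arrays and 3.77 to 4.003 on the knockout arrays. *Lck* was the brightest gene in this sum, at 3.25, 2.04 and 2.41 in control and 3.36, 2.62 and 3.16 in knockout cells, so the sum largely follows *Lck*. *Cd8a* and *Cd8b1* were well above background on 1 knockout array and on no control array. The part of these transcripts in the *Cd5* values was not tested.

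*Spn* encodes CD43 (leukosialin), a sialic acid-rich mucin that B1 cells carry and most resting B2 cells do not. Its brighter probe, at chr7:134277313-134277372 (minus strand), read 4.09, 3.71 and 3.72 in control and 4.46, 4.06 and 4.26 in knockout cells. Only control 1 reached into the knockout range, where it lay just above knockout 2. The difference was 0.42 (SE 0.180, 95% confidence interval 0.0014 to 0.84, adjusted p = 0.203). The other probe lies 315 bases away, at chr7:134276998-134277057, and read 0.01, 0.03 and -0.14 in control and 0.14, 0.43 and 0.35 in knockout cells. There all 3 knockout arrays were above all 3 control arrays, with a difference of 0.34 (SE 0.151, adjusted p = 0.213). Both probes gave a higher mean in knockout cells, their differences lay within 0.08 of each other, and the direction held in each alternative run, over a range of 0.12 to 0.61 for the brighter probe. Some alternative runs, such as those with other filters, leave an estimate as it is and could not turn it, here or for the genes below.

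*Itgam* encodes CD11b, the alpha chain that pairs with CD18 (*Itgb2*) to form the integrin Mac-1, or complement receptor 3. CD11b was also a sorting antigen, and macrophages and granulocytes carry it as well. The array holds 3 *Itgam* probes, and the first 30 of the 60 bases of each are shown because probe 1 alone holds a repeated sequence, which other probes on the array also hold. Capitals mark a run of alternating C and A, 20 bases long, at the start of the brightest probe.
Itgam probe 1: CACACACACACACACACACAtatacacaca
Itgam probe 2: aagttcacaatcctgtaccactcattgtgg
Itgam probe 3: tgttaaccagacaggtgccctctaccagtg
Probe 1 lies at chr7:135261755-135261814, probe 2 at chr7:135260275-135260334 and probe 3 at chr7:135212140-135212199, all on the plus strand of mm9, so that probe 3 is 49615 bases upstream of probe 1.

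*Itgam* probe 1 read 4.37, 4.21 and 4.05 in control and 4.73, 5.86 and 4.40 in knockout cells. All 3 knockout arrays were above the control arrays, but knockout 3 only just above control 1, and knockout 2 alone stood more than 1 log2 unit above every other array. The difference was 0.79 (SE 0.357, 95% confidence interval -0.05 to 1.63, adjusted p = 0.219), the largest SE of the 18 probes. Probe 2 read 1.38, 0.57 and 1.24 in control and 1.29, 1.65 and 1.07 in knockout cells, with overlap and a difference of 0.27 (SE 0.259, adjusted p = 0.506). Probe 3 read -1.77, -2.24 and -1.81 in control and -1.52, -0.61 and -1.66 in knockout cells, with no overlap and a difference of 0.67 (SE 0.298, adjusted p = 0.213). Knockout 2 was the highest array on all 3 probes, at 1.65, 0.58 and 1.33 above the control mean. Without knockout 2 the differences were 0.36, 0.11 and 0.35. That of probe 2 fell to 0.02 without control 2 and to 0.07 with normexp and the 75th percentile, and that of probe 3 to 0.26 with normexp and quantile normalization.

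The profile of *Itgam* probe 1 was followed closely by other probes that hold such a run. Of 9751 other genes with a probe bright enough on every array, the 3 whose profiles over the 6 arrays, each centred on its own mean, lay nearest to it were *Fgf23*, *Pdcd4* and *Snap23*, at root mean square distances of 0.0719, 0.0802 and 0.0825 log2 units, where the probe itself varied by 0.599 about its mean. *Fgf23* is a phosphate-regulating hormone of bone, *Pdcd4* an inhibitor of translation initiation and *Snap23* a membrane-fusion protein. Each of their probes contains a CA run, shown here from its first base with the run in capitals.
Fgf23: CACACACACACACACACACAtacatgtaat
Pdcd4: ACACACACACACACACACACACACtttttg
Snap23: ACACACACACACACACACACACAtgaaata
Apart from *Itgam* probe 1, 54 tested probes, 0.218% of the total, hold 6 or more copies of the dinucleotide CA or AC in a row, in the sequence as the files write it. Of these, 51 were higher in knockout cells and their median difference was 0.88, where the median of all tested probes was -0.09. Their medians lay 0.59, 1.84 and 0.19 above the control mean on knockout 1, 2 and 3, beside 0.52, 1.65 and 0.20 for *Itgam* probe 1. Knockout 2 was the highest of the 6 arrays on 49 of the 54 (90.7%), and on 23.7% of all tested probes. Without knockout 2 their median difference was 0.38. Under the other normalizations computed from the intensities it was 0.58 to 0.98. Probes 2 and 3 of *Itgam* and the other 15 member probes hold no such run, and neither does the probe used for any of the 103 tested genes of the lists described below. The complementary run, 6 or more copies of TG or GT, was held by 120 tested probes with a median difference of 0.22, and by no member. Of these, 106 (88.3%) were higher in knockout cells, where 42.4% of all tested probes were, and knockout 2 was the highest array on 45.8%. The part of the run in the *Itgam* values was not tested.

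**Figure D3:**
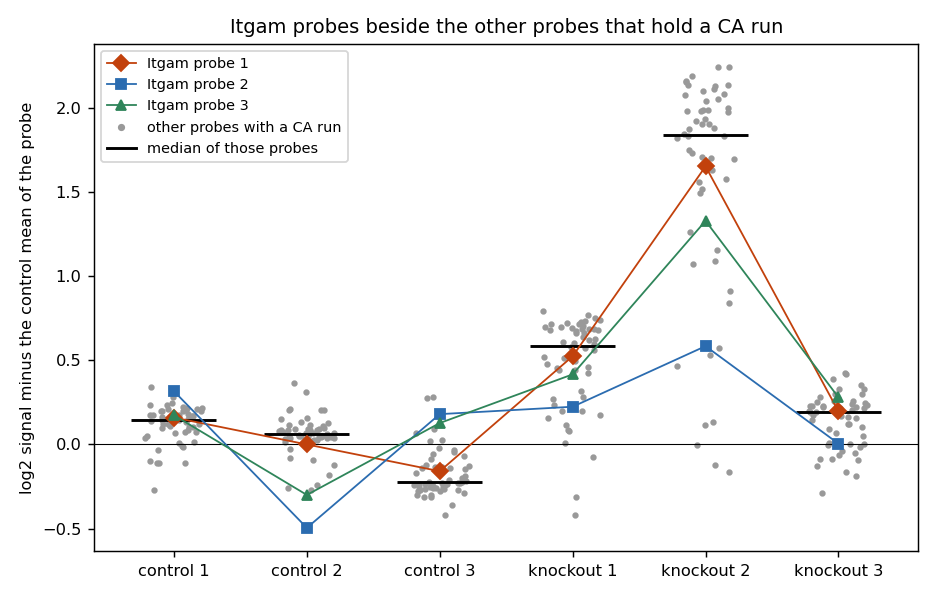
The 3 Itgam probes and the 54 other tested probes that hold a CA run (grey points), each as log2 signal minus the mean of its 3 control arrays, on each of the 6 arrays. Black bars are medians of the grey points. Itgam probe 1 lies near the median of the grey points on every array, and on knockout 2 it stands at 1.65 where that median is 1.84, with probe 3 at 1.33 and probe 2 at 0.58.

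*Itgb2*, the partner chain of CD11b, read 3.14, 3.57 and 3.23 in control and 3.26, 3.18 and 3.13 in knockout cells. Its difference was -0.12 (adjusted p = 0.637), and its direction turned with scaling, to 0.08 with quantile normalization. Of 13 macrophage genes on the array 11 were tested, 10 of them lower and 1 higher in knockout cells, with 7 to 9 lower under the other scalings. *Fcgr1*, 1 of the 10, entered the test through the control arrays alone and turned to 0.57 with normexp and the 75th percentile. The defining markers *Emr1*, a macrophage adhesion receptor, and *Csf1r*, the receptor for macrophage colony-stimulating factor, averaged 2.19 and 3.03 in control and 2.03 and 2.72 in knockout cells, all well above background. The summed level of the macrophage list was 4.41 to 5.40 on the control arrays and 4.26 to 5.65 on the knockout arrays, with knockout 2 the highest of all 6 arrays and the other knockout arrays below the lowest control array. *Marco*, a scavenger receptor of macrophages, was 4.31 on knockout 2 and 0.70 to 2.48 on the other arrays. Of 7 granulocyte genes on the array 2 were tested, and both were higher in knockout cells under each scaling. *Camp*, which encodes the antimicrobial peptide cathelicidin, read -2.77, -2.96 and -3.03 in control and -1.82, -1.08 and -2.49 in knockout cells, with no overlap and knockout 2 the highest array. Its difference of 1.13 passed the 2-fold threshold with unadjusted p, as 2.26% of all genes did on the higher side, but not the adjusted one (adjusted p = 0.128). *Elane*, neutrophil elastase, differed by 0.43 with overlap (adjusted p = 0.360). Without knockout 2 these differences were 0.77 and 0.09, and with normexp and quantile normalization 0.32 and 0.26. The defining granulocyte markers *S100a8* and *S100a9* were well above background on 1 and 1 of the knockout and on 1 and 2 of the control arrays. The summed granulocyte level was 1.11 on knockout 2, 0.00 on the other knockout arrays and -0.31 to 0.70 on the control arrays. The part of these cells in the *Itgam* values was not tested.

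*Cd9* encodes a tetraspanin, a membrane protein that gathers other surface proteins into microdomains and that B1, marginal zone and plasma cells carry. Its probe, at chr6:125410387-125410446 (minus strand), read 4.78, 4.66 and 4.77 in control and 4.29, 4.01 and 4.47 in knockout cells. The control arrays lay close together and all 3 knockout arrays were below them. The difference was -0.48 (SE 0.166, 95% confidence interval -0.87 to -0.09, adjusted p = 0.155), which is 1.39-fold lower, and it stayed negative in each alternative run, between -0.76 and -0.27. Other tetraspanins, read from a list of 13 that were all on the array, ran the same way at 1 probe per gene. All 12 of the list that were tested had a lower mean in knockout cells, with a median of -0.22 where the median of all genes was -0.12 and 60.2% of all genes were lower. At an unadjusted p of at most 0.05, 4 of the 12 were lower and none higher, where 13% of all genes were lower, and none passed the adjusted threshold. *Cd37*, a B cell tetraspanin, differed by -0.12 and *Cd81*, a widely expressed tetraspanin that B cells carry, by -0.51 (adjusted p = 0.176). *Cd82* differed by -0.60 (adjusted p = 0.135) and *Tspan14* by -0.63 (adjusted p = 0.140). The count of lower genes depended on the scaling, and was 9 of 12 with quantile normalization with or without normexp and 10 or 11 under the others.

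*Cd300lf* encodes CLM-1, an inhibitory receptor of the immunoglobulin superfamily that recognises membrane lipids. Its 3 probes are given with the first 30 bases of the pair that overlap, since these are nearly repeats of one another and not separate readings. They are shifted by 7 bases, share 53 of 60 bases, and capitals mark the part shared within the stretch shown.
Cd300lf probe 1: gggttggGTGGAGTTGAATTGATTGTGTAC
Cd300lf probe 2: GTGGAGTTGAATTGATTGTGTACtttcaga
Probe 1, at chr11:114977540-114977599 (minus strand), read 6.15, 5.44 and 5.51 in control and 5.91, 5.40 and 5.48 in knockout cells. Probe 2, at chr11:114977533-114977592, read 5.31, 4.65 and 4.65 in control and 5.09, 4.47 and 4.57 in knockout cells. Probe 3, at chr11:114977796-114977855, read 3.32, 2.82 and 2.79 in control and 3.04, 2.86 and 2.65 in knockout cells. On all 3 probes control 1 was the highest array and knockout 1 the second highest, and the genotypes overlapped. The differences were -0.10, -0.16 and -0.12, with adjusted p-values of 0.803, 0.693 and 0.696, and their direction turned under quantile normalization, under other settings and without control 1. With normexp and the 75th percentile they were -0.41, -0.47 and -0.40, of which none passed the adjusted threshold. For the brightest probe the 95% confidence interval was -0.67 to 0.47, which includes 0 and lies within a 2-fold change either way. The summed macrophage level was 5.40 on control 1, the second highest of the 6 arrays, and 4.26 on knockout 1, the lowest, and its part in the *Cd300lf* values was not tested.

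Of 6 other CD300 genes listed, all on the array, 4 were tested. *Cd300lg*, which encodes an endothelial member of the family (nepmucin), read 0.70, 1.01 and 0.73 in control and 2.02, 2.47 and 1.57 in knockout cells. The 3 knockout arrays were all above the control arrays, with a difference of 1.21 that passed the 2-fold threshold with unadjusted p, as 2.26% of all genes did on the higher side, but not the adjusted one (adjusted p = 0.0921). *Cd300ld* differed by -0.83 (adjusted p = 0.119), from 0.50 to -0.33, also with no overlap. *Cd300a* and *Cd300c* were well above background on the 3 control arrays and on no knockout array, and they entered the test only through the control group. Their differences of -0.52 and -0.26 were turned to 0.60 and 0.49 by normexp with the 75th percentile.

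Among the calcium- and membrane-binding proteins, *Anxa2* encodes annexin A2, which binds acidic phospholipids in the presence of calcium and forms a tetramer with S100A10 at the inner face of the plasma membrane. It gave the smallest adjusted p of the 18 probes, and its single probe, at chr9:69339532-69339591 (plus strand), begins as follows.
Anxa2: gtctgtgacatgagacacttcctcttatgt
The probe read 7.34, 7.96 and 7.46 in control and 6.50, 6.90 and 7.05 in knockout cells. All 3 knockout arrays were below all 3 control arrays, with control 2 the highest and knockout 1 the lowest. The difference was -0.77 (SE 0.227, 95% confidence interval -1.30 to -0.24, adjusted p = 0.128), which is 1.70-fold lower. It stayed negative in each alternative run, from -1.08 to -0.58, and passed the adjusted threshold in 2 of them, at 0.00367 with normexp and the 75th percentile, where 9330 of the 24754 tested probes passed, and at 0.0488 with a variance trend and robust estimation, where 980 did. With slide row as a block, which compares the knockout arrays with control 3 alone, it was -0.64. The macrophage genes were lower in knockout cells for 10 of 11 tested, of which *Fcgr1* entered the test through the control arrays alone. They include *Mrc1*, the mannose receptor, at -1.08 (adjusted p = 0.106), and *Lyz2*, lysozyme, at -1.08 with overlap. Both were past 2-fold with unadjusted p, as 1.28% of all genes were on the lower side. The summed macrophage level overlapped between genotypes and was highest on knockout 2, the array on which *Marco* read 4.31. The part of macrophage transcripts in the *Anxa2* values was not tested.

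*Anxa2* had 3 near neighbours in profile, *Glipr2*, *Kcnk6* and *Bcorl1*, at root mean square distances of 0.101, 0.105 and 0.115 where *Anxa2* itself varied by 0.460 about its mean. *Glipr2* read 0.31, 1.06 and 0.66 in control and -0.33, -0.19 and 0.12 in knockout cells. *S100a10*, the partner of annexin A2, read 5.83, 5.92 and 5.82 in control and 5.11, 5.42 and 5.76 in knockout cells, with no overlap and a difference of -0.42 (adjusted p = 0.221). Of the other annexins on the array, 8 of 11 were tested and all 8 were lower in knockout cells, with a median of -0.29 against -0.12 for all genes, and 2 of them had an unadjusted p of at most 0.05, where 13% of all genes were lower at that threshold. *Anxa6*, which binds membranes through 2 annexin cores, differed by -0.23, *Anxa11* by -0.57 (adjusted p = 0.133) and *Anxa4* by -0.32 (adjusted p = 0.200), the latter 2 with no overlap. *Anxa3* entered the test through the control arrays alone and turned to 0.34 under normexp with the 75th percentile, where 7 of 8 were lower.

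*S100a6* encodes calcyclin, a small calcium sensor of the EF-hand family. Its probe, at chr3:90418160-90418219 (plus strand), read 9.61, 9.65 and 9.64 in control and 9.34, 9.68 and 9.44 in knockout cells. The control arrays lay close together, knockout 2 was the highest array and knockout 1 the lowest. The difference was -0.15 (SE 0.151, 95% confidence interval -0.50 to 0.21, adjusted p = 0.537). Without knockout 1 it came to -0.07 and without knockout 2 to -0.25. It depended on the scaling more than that of any other member, from -0.05 on the median of detected probes to -0.74 in the deposited log2 table, and passed the adjusted threshold at -0.71 with normexp and quantile normalization (adjusted p = 0.0492), where 55 of the 24754 tested probes passed, and at -0.50 with normexp and the 75th percentile, where 9330 did. No spot was marked as saturated. Of the other S100 genes 8 of 15 on the array were tested and all 8 were lower in knockout cells, with a median of -0.37, where the median of all genes was -0.12 and 60.2% of all genes were lower. At an unadjusted p of at most 0.05, 2 of the 8 were lower, where 13% of all genes were. On 5 of the 8 the genotypes did not overlap, as on 19.6% of all tested probes in that direction. *S100a4*, a cytoskeleton-binding member, differed by -0.75 (adjusted p = 0.116), from 7.01 to 6.26, and *S100a16* by -0.59 (adjusted p = 0.129). *S100a3* entered the test through the control arrays alone, and 7 of 8 were lower with quantile normalization and with normexp and the 75th percentile.

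**Figure D4:**
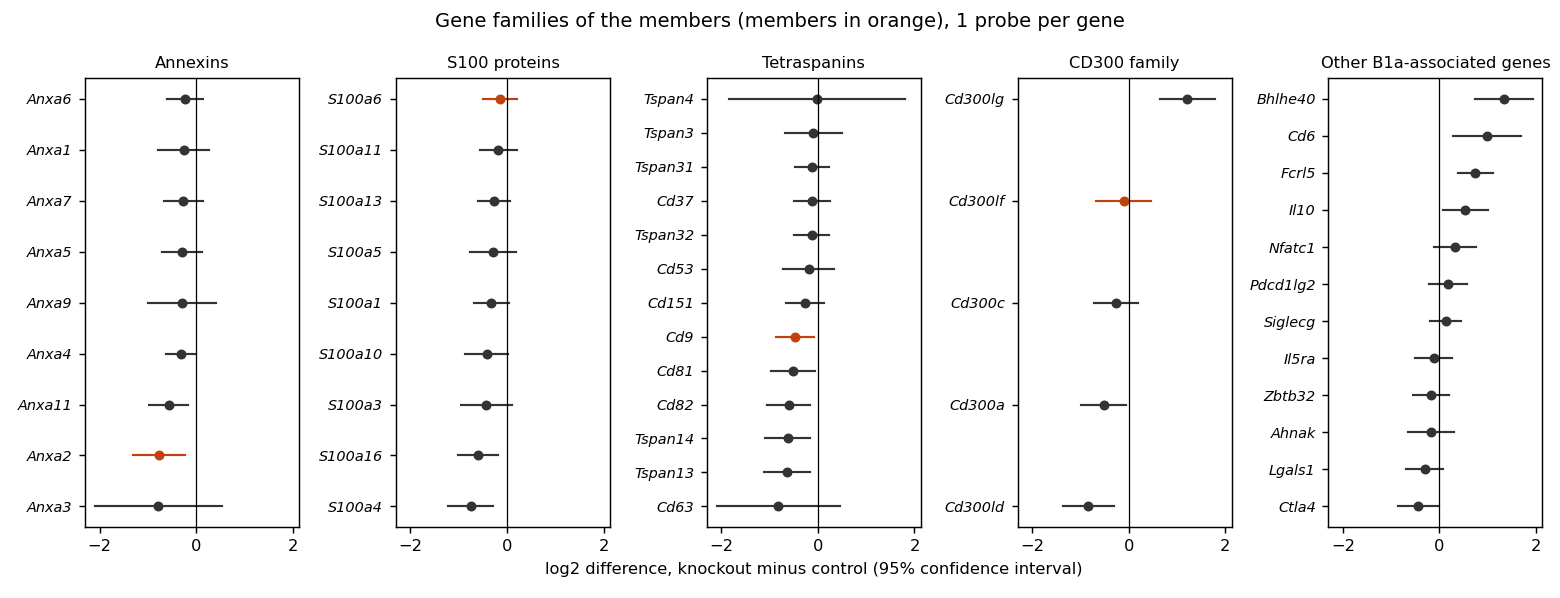
Differences (knockout minus control, log2) with 95% confidence intervals for the listed and tested annexins, S100 proteins, tetraspanins, CD300 genes and other B1a-associated genes, 1 probe per gene, with Anxa2, S100a6, Cd9 and Cd300lf in orange. Apart from these 4, the 8 annexins, 8 S100 genes and 12 tetraspanins lie below 0 at this scaling (7 or 8, 7 or 8 and 9 to 11 of them under the other scalings), and most intervals cross 0.

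*Plscr1* encodes phospholipid scramblase 1, a palmitoylated membrane protein that interferons induce in many cell types. Its brighter probe, at chr9:92166424-92166483 (plus strand), read 4.95, 4.83 and 4.95 in control and 5.11, 4.68 and 4.88 in knockout cells. The other, at chr9:92164754-92164813, read 4.62, 4.67 and 4.67 in control and 4.81, 4.41 and 4.53 in knockout cells. On both probes knockout 1 was the highest and knockout 2 the lowest of the 6 arrays, so the knockout arrays enclosed the control arrays. The differences were -0.02 (95% confidence interval -0.40 to 0.36, adjusted p = 0.942) and -0.07 (-0.44 to 0.30, adjusted p = 0.785), and their direction turned with scaling, to 0.18 and 0.12 with quantile normalization, while with normexp and the 75th percentile they were -0.34 and -0.37. At the scaling used here both intervals lie within a 2-fold change either way. Of 15 genes commonly induced by interferon, all tested, 13 were higher and 2 lower in knockout cells, 7 of them higher at an unadjusted p of at most 0.05, where 11.5% of all genes were higher. *Irf7*, a transcription factor of the interferon response, differed by 1.32 (adjusted p = 0.0927) and *Rtp4* by 1.498 (adjusted p = 0.0944). With normexp, *Irf7* came to 0.79 at the 75th percentile and to 0.30 with quantile normalization. *Bst2* (tetherin) and *Stat2*, the genes of this list with the highest signals, differed by 0.08 and -0.26, both with overlap. *Bst2* turned to -0.08 without control 1 and to -0.24 with normexp and the 75th percentile, and was 0.26 with quantile normalization. *Stat2* ran from -0.42 without knockout 3 to -0.12 without control 1. *Plscr3*, a mitochondrial scramblase, differed by 0.13, and *Plscr2* and *Plscr4* were well above background on no array.

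Of the transcription factors, *Arid3a* encodes Bright, an AT-rich DNA-binding protein that binds the immunoglobulin heavy-chain locus. Its probes lie 321 bases apart, and the first 30 bases of each are shown because these 2 stretches do not overlap and gave differences of the same sign.
Arid3a probe 1: cagcctgggggttgcacacaaactcaggta
Arid3a probe 2: tatttaacgggcttgtaaccctgtaaatca
Probe 1, at chr10:79417377-79417436 (plus strand), read 3.69, 3.61 and 3.80 in control and 3.44, 3.30 and 3.38 in knockout cells. Probe 2, at chr10:79417698-79417757, read 3.18, 2.95 and 3.00 in control and 2.68, 2.35 and 2.68 in knockout cells. On both probes all 3 knockout arrays were below all 3 control arrays. The differences were -0.33 (SE 0.141, adjusted p = 0.206) and -0.47 (SE 0.162, adjusted p = 0.152), or 1.25-fold and 1.39-fold lower. They stayed negative in each alternative run, but with quantile normalization came to -0.13 and -0.27, and with normexp and the 75th percentile both passed the adjusted threshold, at 0.0218 and 0.0165, as 9330 of the 24754 tested probes did under that setting. *Arid3b*, the paralogue of *Arid3a*, went the other way at 0.40 (adjusted p = 0.161), with all 3 knockout arrays above the control arrays. *Lin28b*, which lies upstream of *Arid3a* in fetal B lymphopoiesis, was well above background on no array. *Lin28a* was, on all 6, and differed by 1.01 (adjusted p = 0.113), from -1.41 to -0.40, and by 0.58 with normexp and quantile normalization.

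*Bhlhe41* encodes a basic helix-loop-helix repressor that B1a cells need to develop and persist. Its probes lie 1377 bases apart and begin as follows, again as a pair that does not overlap.
Bhlhe41 probe 1: ttgaaagcgctaacagccttaactgagcag
Bhlhe41 probe 2: gaggagtcgccgggtttccaagttcaaacg
Probe 1, at chr6:145812652-145812711 (minus strand), read 1.02, 1.26 and 1.22 in control and 2.02, 1.78 and 1.34 in knockout cells. Probe 2, at chr6:145811275-145811334, read 0.94, 1.15 and 1.05 in control and 1.47, 1.498 and 1.43 in knockout cells. On both probes all 3 knockout arrays were above all 3 control arrays. Knockout 3 exceeded the highest control array only slightly on probe 1, while the 3 knockout arrays lay close together on probe 2. The differences were 0.55 (SE 0.204, adjusted p = 0.170) and 0.42 (SE 0.139, adjusted p = 0.147), or 1.46-fold and 1.34-fold higher. They stayed positive in each alternative run, from 0.30 to 0.73 and from 0.20 to 0.53. *Bhlhe40*, its close paralogue, read -0.58, -1.37 and -0.53 in control and 0.70, 0.34 and 0.50 in knockout cells. That difference of 1.34 passed the 2-fold threshold with unadjusted p but not the adjusted one (adjusted p = 0.0890), with no overlap.

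Members whose direction held in every alternative run thus lay on both sides, with *Bhlhe41*, *Spn* and *Itgam* higher and *Anxa2*, *Cd9*, *Arid3a*, *S100a6* and *Cd5* lower in knockout cells. Some of these came close to 0 in a run, with *Itgam* probe 2 at 0.02 without control 2 and *Cd5* at -0.04 with quantile normalization. *S100a6* came to -0.05 on the median of detected probes. Of the 12 other B1a-associated genes, 7 were higher and 5 lower, with a median of 0.15 against -0.12 for all genes, which turned to -0.17 with 5 higher under normexp with the 75th percentile. At an unadjusted p of at most 0.05, 4 were higher, namely *Bhlhe40*, *Fcrl5*, *Cd6* and *Il10*, and 1 was lower, *Ctla4*, where 11.5% of all genes were higher and 13% lower. *Fcrl5*, an Fc receptor-like molecule of innate-like B cells, differed by 0.74 (adjusted p = 0.0944), from 5.15 to 5.89. *Ahnak* and *Zbtb32*, the genes of this list with the highest signals, both differed by -0.18, and by -0.52 and -0.47 with normexp and the 75th percentile. *Ahnak* came to 0.02 without knockout 1 and to -0.34 without knockout 3, and *Zbtb32* to -0.10 without control 1. *Cd72*, an inhibitory B cell coreceptor for which CD5 has been described as a ligand, read 1.92, 0.93 and 1.47 in control and 3.16, 2.72 and 2.69 in knockout cells, a difference of 1.42 with no overlap (adjusted p = 0.0890).

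**Figure D5:**
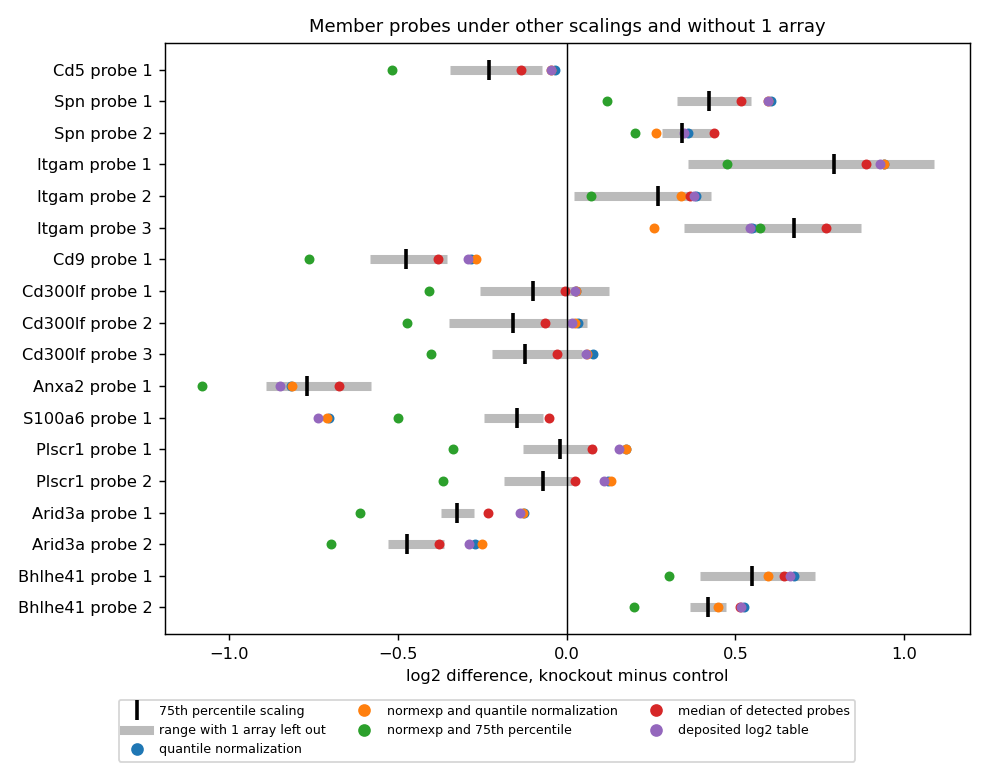
Difference between genotypes (log2) for each of the 18 probes under the 75th percentile scaling used in the text (black), 5 other scalings (coloured points) and with each array left out in turn (grey range). The points of Plscr1 and Cd300lf lie on both sides of 0, while those of the other 8 genes stay on 1 side.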

How the data were processed

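Cy3-labelled RNA of the sorted PC B1a cells was measured on Agilent mouse arrays of 1 colour, 3 per genotype, all on 1 slide and in 1 scan. The authors deposited for each array the spot intensity given by Feature Extraction 10.7.1.1 (per the labels), background subtracted but not scaled between arrays, and 1 table of log2 values whose column medians are identical, so that table was already scaled between arrays by a method not given in the sources used here. The processed signal was put on a log2 scale and centred on the array's 75th percentile over 59305 non-control spots. Spots with an outlier mark (163 to 251 an array) were dropped, and repeat spots of 1 probe were averaged. Tests were restricted to the 24754 of 55681 probes that all 3 arrays of either genotype, or of both, showed well above background. Every probe entered on its own, with the genotype as the single term (lmFit and eBayes, limma 3.58.1, R 4.3.3), and Benjamini-Hochberg adjustment covered all tested probes. The alternatives were other scalings and background corrections (normexp with an offset of 50), the deposited log2 table, other filters and variance models, blocks and each array left out. The fit was checked on simulated data.

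The members, the gene lists and the alternatives were chosen with earlier results of these data known. Every member probe is named. Of each list the text names up to 2 genes with the highest signal and up to 2 with the smallest unadjusted p, the first 2 of each list of another cell type as defining markers, and the 3 nearest profiles to the 2 members with the widest range (*Itgam* and *Anxa2*). Partners and paralogues of a member, *Anxa3*, *S100a3*, *Cd300a*, *Cd300c*, *Marco*, *Fcgr1*, *Cd3g*, *Cd8a* and *Cd8b1* were named beyond that rule after their values were seen, and so was the CA run. A list gene is read by its brightest tested probe, or its brightest probe where none was tested. The summed level of a list is log2 of the sum of its scaled signals. Sequences and mm9 coordinates are those of the array files, and the exon or untranslated region a probe lies in is not given in the sources used here. The labels call the arrays of a genotype replicates and do not say that their mice came from separate litters or days, so p-values measure the spread between these samples, and the number of arrays limits the precision. Some list members are not reported here.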

Additional observations from a re-analysis of the deposited data

How the results depend on the processing

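Of 352 values of the 18 probes under 20 alternatives, 29 turned direction, in *Cd300lf* and *Plscr1*, and 8 newly passed the adjusted threshold. The cause was not tested. The 352 include values from settings that left the estimate of each member probe as it was, so those could not turn. These were the other filters, outlier spots kept, 1 probe per gene, the t-test, trend and robust estimation and the replicate block. *Cd300lf* probes 1, 2 and 3 turned to 0.0279, 0.0324 and 0.0773 with quantile normalization, 0.0286, 0.0249 and 0.0608 with normexp and quantile normalization, 0.0230, 0.0149 and 0.0567 in the deposited table, 0.0923, 0.0600 and 0.0621 with slide row as a block (chosen after seeing the data), and probes 1 and 2 to 0.0693 and 0.0431 with array weights. With 1 array left out they lay between -0.256, -0.348 and -0.221 without knockout 1 and 0.125, 0.0604 and 0.0455 without control 1. *Plscr1* probes 1 and 2 turned to 0.176 and 0.123 with quantile normalization, 0.176 and 0.131 with normexp and quantile normalization, 0.0740 and 0.0234 on the median of detected probes, 0.154 and 0.111 in the deposited table, 0.0670 and 0.0173 with array weights. With 1 array left out they lay between -0.130 and -0.186 without knockout 1 and 0.0836 and 0.0155 without knockout 2. The other 8 genes kept their direction.

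Member probes past the 2-fold threshold with unadjusted p numbered 1 with normexp and the 75th percentile (*Anxa2*) and 0 to 1 with an array left out (*Itgam* probe 1, without knockout 3). Member probes past the adjusted threshold numbered 1 with normexp and quantile normalization (*S100a6*), 6 with normexp and the 75th percentile (*Itgam* probe 3, *Cd9*, *Anxa2*, *S100a6* and both *Arid3a* probes) and 1 with eBayes trend and robust estimation (*Anxa2*). Over all probes, 899 passed the 2-fold threshold with unadjusted p, against 192 with normexp and quantile normalization, 233 with normexp and the 75th percentile, 18975 with no filter on dim probes, 592 with a filter on all 6 arrays and 742 to 1539 with an array left out, the highest without knockout 3. The adjusted threshold was passed by 20, against 6 with quantile normalization, 55 with normexp and quantile normalization, 9330 with normexp and the 75th percentile, 8 on the median of detected probes, 6 in the deposited table, 2 with no filter, 96 with a filter on all 6 arrays, 7 with 1 probe per gene, 1 by the methods' t-test, 980 with trend and robust estimation, 688 with array weights, 0 with slide row as a block and 2 to 115 with an array left out, the highest without knockout 3.

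The replicate numbers of the titles are shared by the genotypes, and same-numbered arrays deviated together with correlations of 0.175, 0.057 and 0.120. These correlations were low, but each array correlated best with its own number. The values do not settle whether the samples were paired. With the replicate block 1 probe passed the adjusted threshold and 902 passed 2-fold with unadjusted p, and no member probe passed either. Slide as a block was not run, since all arrays lay on 1 slide. The knockout arrays, with the lower signal, limit what can be read of dim probes.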

Other observations

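Lists read beside the members but not described above gave the following values, with no gene past the adjusted threshold in limma. Of the B lineage genes, *Pax5*, the B lineage commitment factor, differed by 0.57 (adjusted p = 0.121) with no overlap. *Cd79b* differed by 0.28 at the 75th percentile scaling, and by -0.18 with quantile normalization. Of the 7 B2 genes tested 4 were higher and 3 lower, and *Ccr7*, a chemokine receptor that guides lymphocytes to lymph nodes, differed by 0.65 (adjusted p = 0.132), from 4.83 to 5.48 with no overlap. *Cxcr5*, a chemokine receptor of B cell follicles, differed by -0.09. The 10 partners and regulators of the members included 7 tested genes, 3 higher and 4 lower, and *Lin28b*, *Sox4* and *Igll1* were well above background on no array.

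Of 7 mast cell genes 4 were tested, 1 higher and 3 lower in knockout cells. *Mcpt4*, a mast cell protease, read 0.68, -0.44 and -2.88 in control and -3.43, -3.24 and -1.99 in knockout cells, with overlap. Its difference of -2.01 (adjusted p = 0.203) was past 2-fold with unadjusted p, as 1.28% of all genes were on the lower side, and it came to -1.23 without control 1 and to -0.65 with normexp and the 75th percentile. *Mcpt4* entered the test through the control arrays alone, as did *Cpa3*, at -1.27 with overlap, which came to -0.49 without control 1, -2.15 without control 3 and -0.26 with normexp and the 75th percentile. *Hdc* and *Tpsb2*, the mast cell genes with the highest signals, differed by 0.05 and -0.25. They came to -0.22 and -0.59 without control 3 and to 0.33 and -0.02 without control 1. The defining marker *Cpa3* was well above background on 3 control and 2 knockout arrays and *Kit* on 2 and 1, and the summed level was 2.26, 1.41 and 0.15 on control 1, 2 and 3 and 0.46 to 0.92 on the knockout arrays. Control 1, the array highest for mast cell genes, was also the highest for *Cd300lf*, and the part of these transcripts in the *Cd300lf* values was not tested. Of 6 NK cell genes 2 were tested, both higher in knockout cells with overlap, *Gzma* (granzyme A) by 1.44 (adjusted p = 0.236), which entered the test through the knockout arrays alone, and *Prf1* (perforin) by 0.15. *Gzma* came to 0.66 without control 3, 2.23 without control 1 and 0.20 with normexp and quantile normalization. The defining markers *Ncr1* and *Klrb1c* were well above background on no array.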
